A study of Mus musculus with 63 samples.

Results

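miR-511 is a macrophage microRNA (miRNA) that is cut from an intron of Mrc1, and its 2 arms, mmu-miR-511-3p and mmu-miR-511-5p, were followed here across 4 cell populations sorted from injured and repairing mouse kidneys. The members were taken by name: 2 of the 2110 counted miRNA loci, which carry 1966 mature names in all, are these arms. Male C57BL/6 mice of 8 to 12 weeks either had a sham operation, had the ureter of 1 kidney obstructed for 2 days (UUO-2) or 7 days (UUO-7), or had 7 days of obstruction followed by reimplantation of the ureter and 2 weeks of reversal (R-UUO). From each of 16 mice, 4 per condition, the study sorted endothelial cells (ECs, gated as CD31+ and CD45-), macrophages (Macs, F4/80hi and CD45+), proximal tubule cells (PT cells, LTL+) and PDGFR-β+ cells, both of the latter negative for CD45 and CD31, the last being the mesenchymal population that holds pericytes and fibroblasts, and sequenced their small RNA. This gave 63 libraries, 4 in every group except PDGFR-β+ cells at UUO-7, where 3 remained after the authors removed 1 as an outlier. The sequenced mice were those nearest the group mean of a tubular injury transcript, and F4/80hi is a gate that does not separate macrophage subsets.

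Mrc1 encodes the mannose receptor CD206, an endocytic receptor of tissue-resident and alternatively activated macrophages, and the hairpin in its intron is transcribed with the gene. Dicer processing of such a hairpin releases a duplex, and either strand, the 5p or the 3p arm, can be loaded into an Argonaute protein and guide it to messenger RNAs that pair with the seed of the miRNA. In macrophages the 3p arm of miR-511 is known for restraining a gene programme of alternatively activated cells. Messenger RNA, and so Mrc1 itself, was not measured in these libraries.

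The hairpin lies on chromosome 2, chr2:14261003-14261081 on the + strand of GRCm38, and it is printed because its strands are the molecules counted here. It falls in an intron of 4071 bases between exon 5 and exon 6 of Mrc1 (chr2:14229392-14332057, + strand, GENCODE), 3885 bases past the former exon and 107 bases before the latter. The counted 5p locus (chr2:14261013-14261033) and 3p locus (chr2:14261051-14261072) overlap no other counted locus. In the RefSeq sequence of the hairpin (GRCm38), written 5′ to 3′, capitals mark the 5p arm first and the 3p arm second, and in the mature 3p sequence capitals mark the seed, bases 2 to 8.
Mir511 hairpin: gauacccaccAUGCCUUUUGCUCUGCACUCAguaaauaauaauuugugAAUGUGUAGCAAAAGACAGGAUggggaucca
mmu-miR-511-3p: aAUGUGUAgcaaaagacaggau
None of the other mature names among the 1679 in the RefSeq table shares bases 2 to 8 with the 3p arm, and 2 names, mmu-miR-1187 and mmu-miR-1198-5p, share bases 2 to 7. The mature entry of mmu-miR-511-5p is missing.

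The libraries held 616565 to 10819385 counts each, with 1106651 to 6912556 in Macs, 1905053 to 8769219 in PDGFR-β+ cells, 2792366 to 10819385 in ECs and 616565 to 5093294 in PT cells. Levels are given as CPM, counts per 1000000 counts of a library, after TMM scaling, which aligns libraries on the loci that change least; CPM scaled over all 63 libraries are used between cell types and CPM scaled within 1 cell type are used between conditions. A locus was called changed at a false discovery rate (FDR, Benjamini-Hochberg) under 0.05 and a fold change over 1.5 in edgeR's quasi-likelihood test. The markers of each gate were highest in their own population: the leukocyte miRNAs miR-142a and miR-223, both arms of each, summed to 14848 to 42066 CPM in Mac libraries and to at most 700.0 CPM (PDGFR-β+ cells at UUO-7) in PDGFR-β+ cell libraries. The markers of PDGFR-β+ cells (miR-199a-3p, miR-214-3p, miR-143-3p and miR-145a-5p) summed to at least 88410 CPM there, but reached 45979 CPM in an R-UUO EC library. In R-UUO PT replicate 1 they summed to 25792 CPM, above its PT markers miR-192-5p and miR-194-5p (16092 CPM).

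Both arms were most abundant in Macs in all 4 conditions. On the scale of all libraries, miR-511-3p was 43.6 to 124 CPM over the 16 Mac libraries (median 67.5), against 0 to 8.00 CPM in PDGFR-β+ cells (median 3.82), 0 to 2.07 CPM in ECs (median 0.558) and 0 to 2.75 CPM in PT cells (median 0). miR-511-5p was 39.7 to 95.0 CPM in Macs (median 58.3), 0 to 12.4 CPM in PDGFR-β+ cells (median 2.90), 0 to 1.08 CPM in ECs (median 0.0861) and 0 to 0.459 CPM in PT cells (median 0). Every Mac library lay above every other library for both arms. Since the arms were picked as macrophage miRNAs, this contrast is a description and was not tested.

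**Figure D1:**
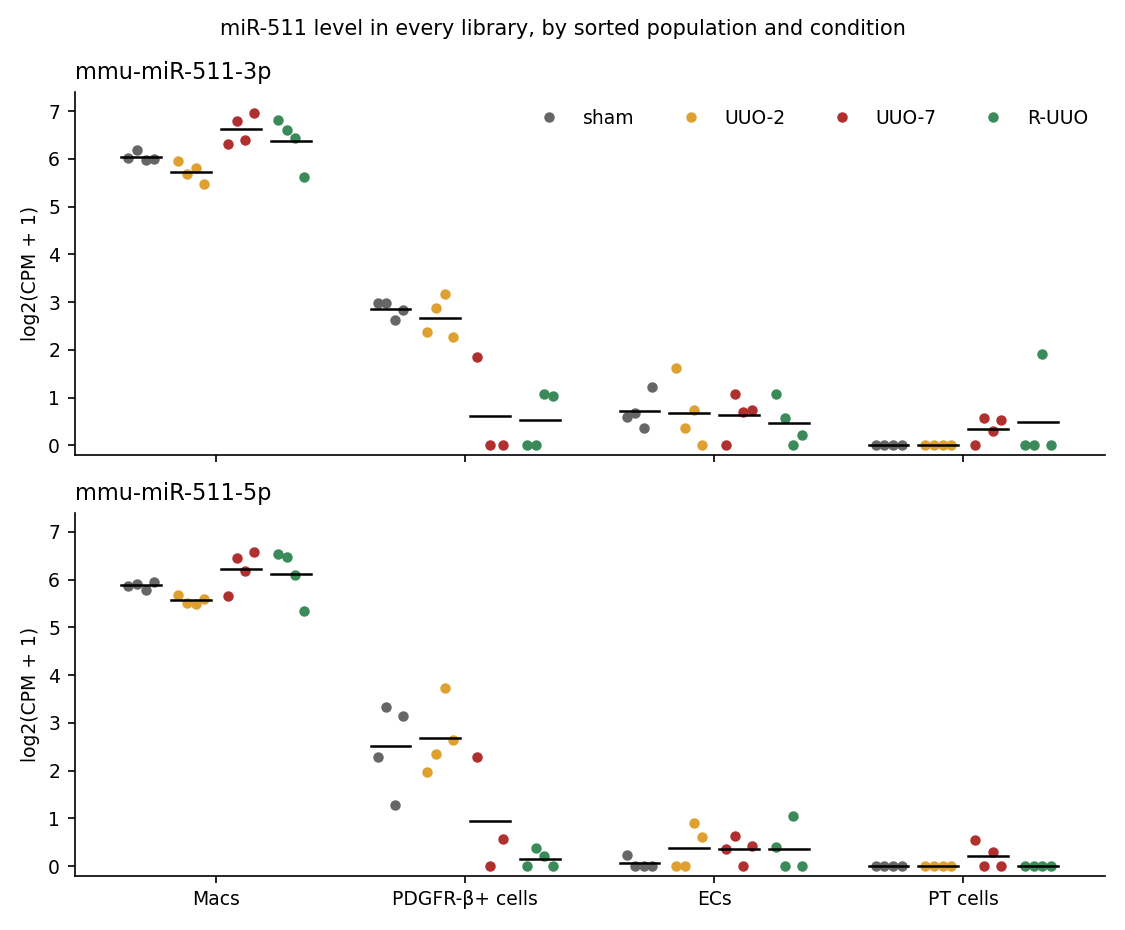
Level of miR-511-3p (top) and miR-511-5p (bottom) as log2(CPM + 1), scaled over all 63 libraries, by sorted population on the horizontal axis and condition in colour; each point is 1 library and each black line a mean on this log scale. Mac libraries stand above all others, and PDGFR-β+ cell libraries stand above ECs and PT cells in sham and UUO-2, while most UUO-7 and R-UUO libraries do not.

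The raw counts show how much evidence each cell type gives. Macs had 86 to 932 reads of the 3p arm and 71 to 853 of the 5p arm per library. PDGFR-β+ cells had 0 to 36 and 0 to 51 reads, with more than 3 reads in 11 of 15 and 8 of 15 libraries. ECs had 0 to 7 reads of the 3p arm and 0 to 4 of the 5p arm, with more than 3 reads in 6 and 1 of the 16 libraries, and PT cells never had more than 2. Summed over all libraries, 3p reads numbered 6628 in Macs, 189 in PDGFR-β+ cells, 47 in ECs and 5 in PT cells, and 5p reads numbered 5642, 181, 15 and 2.

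Pooled over the libraries of a condition, the Mac level of miR-511-3p was 98.7 times that of ECs in sham (95% interval 60.6 to 173, counting error only), 72.6 times at UUO-2 (38.2 to 159), 168 times at UUO-7 (93.5 to 337) and 175 times in R-UUO (97.3 to 350). In sham and UUO-2 PT cells neither arm had a read. With 3 reads assumed over the 4 sham PT libraries in place of 0, miR-511-3p was 93.8-fold and miR-511-5p 84.6-fold higher in sham Macs. The same assumption gave 101-fold and 88.8-fold at UUO-2. The lower ends of the 95% intervals for the observed 0 reads were 76.2 and 68.7 in sham and 82.2 and 72.1 at UUO-2 (counting error only). PT libraries were the shallowest, so a lower level in them was not detectable at this depth.

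Below Macs, with the conditions pooled, PDGFR-β+ cells stood above ECs and PT cells. Each pair was compared within mice on the log2(CPM + 1) scale with an exact two-sided sign-flip permutation test over 15 or 16 mice, with adjustment over the 6 pairs. For miR-511-3p the mean difference was 1.15 between PDGFR-β+ cells and ECs (SD 1.33, higher in 11 of 15 mice, exact adjusted p = 0.0106) and 1.56 between PDGFR-β+ cells and PT cells (SD 1.49, higher in 10 of 15, exact adjusted p = 0.00586). The former was no longer called on the log2(CPM + 0.1) scale (1.67, exact adjusted p = 0.0574). For miR-511-5p these differences were 1.35 (SD 1.36, higher in 11 of 15, exact adjusted p = 0.00586) and 1.56 (SD 1.35, higher in 12 of 15, exact adjusted p = 0.00439).

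ECs and PT cells could not be ordered at this depth. PT cells had no read of the 3p arm in 12 of 16 libraries and none of the 5p arm in 14, and the floor of 3 reads, 0.674 to 4.13 CPM per PT library, lay above the EC medians of 0.558 and 0.0861 CPM. The mean difference within mice was 0.42 for miR-511-3p (SD 0.757) and 0.24 for miR-511-5p (SD 0.395) on the log2(CPM + 1) scale, with ECs the more deeply sequenced, and is given as a description. The same floor limits the comparison of PDGFR-β+ cells with PT cells.

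The place of PDGFR-β+ cells rests on sham and UUO-2 and did not hold in R-UUO. At UUO-7 nearly all their reads came from replicate 2. Their median there was 0 CPM for miR-511-3p, against 0.644 CPM in ECs, and 0.482 CPM for miR-511-5p, against 0.305 CPM in ECs. In R-UUO the means of miR-511-3p were 0.541 CPM in PDGFR-β+ cells, 0.439 CPM in ECs and 0.688 CPM in PT cells, and those of miR-511-5p were 0.116 CPM in PDGFR-β+ cells and 0.349 CPM in ECs, all from 11 reads or fewer per group.

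In Macs, miR-511-3p was about as high at UUO-2 as in sham and higher at UUO-7. On the scale within Macs, sham libraries 1 to 4 held 99.1, 112, 101 and 92.6 CPM. UUO-2 libraries 1 to 4 held 102, 91.0, 95.0 and 81.8 CPM. UUO-7 libraries 2 to 5 held 137, 194, 156 and 190 CPM, all above every sham and UUO-2 library. R-UUO libraries 1, 2, 4 and 5 held 185, 153, 132 and 81.7 CPM, so that 3 lay above every sham library and 1 lay below all of them.

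The sham mean was 101 ± 8.05 CPM and the UUO-2 mean 92.5 ± 8.55 CPM, against 169 ± 27.4 CPM for UUO-7 and 138 ± 43.2 CPM for R-UUO (SD, n = 4 each). From sham to UUO-7 the 3p arm rose by 0.74 on the log2 scale (SE 0.20, 1.68-fold, edgeR adjusted p = 0.00466). It was 1 of 120 loci called higher, 26.3% of the 457 tested in Macs, and 27.8% had UUO-7 libraries that all lay above the sham libraries. From UUO-2 to UUO-7 it rose by 0.87 (SE 0.20, 1.83-fold, edgeR adjusted p = 0.00232), where 16.2% of loci were called higher and 21% did not overlap upwards. The rise from sham and that from UUO-2 passed in every alternative, each library left out included.

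miR-511-5p followed the same course with smaller differences. Sham libraries 1 to 4 held 89.1, 93.2, 88.4 and 90.0 CPM, a narrow range. UUO-2 libraries held 85.0, 80.6, 76.5 and 89.4 CPM, and UUO-7 libraries 2 to 5 held 86.1, 153, 134 and 145 CPM. The first of these UUO-7 values, replicate 2, lay below all 4 sham libraries and the other 3 lay above them. R-UUO libraries 1, 2, 4 and 5 held 153, 140, 104 and 67.5 CPM, again with the last below every sham library.

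The 5p change from sham to UUO-7 was 0.53 (SE 0.22, 1.44-fold, edgeR adjusted p = 0.0528) and did not meet the call. Without UUO-7 replicate 2 it did (0.68, edgeR adjusted p = 0.0133). From UUO-2 to UUO-7 miR-511-5p rose by 0.65 (SE 0.22, 1.57-fold, edgeR adjusted p = 0.0271), and this call was lost without UUO-2 replicate 1, 2 or 3 (0.66, 0.63 and 0.61) or UUO-7 replicate 3, 4 or 5 (0.56, 0.63 and 0.59), with edgeR adjusted p between 0.0538 and 0.0799.

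**Figure D2:**
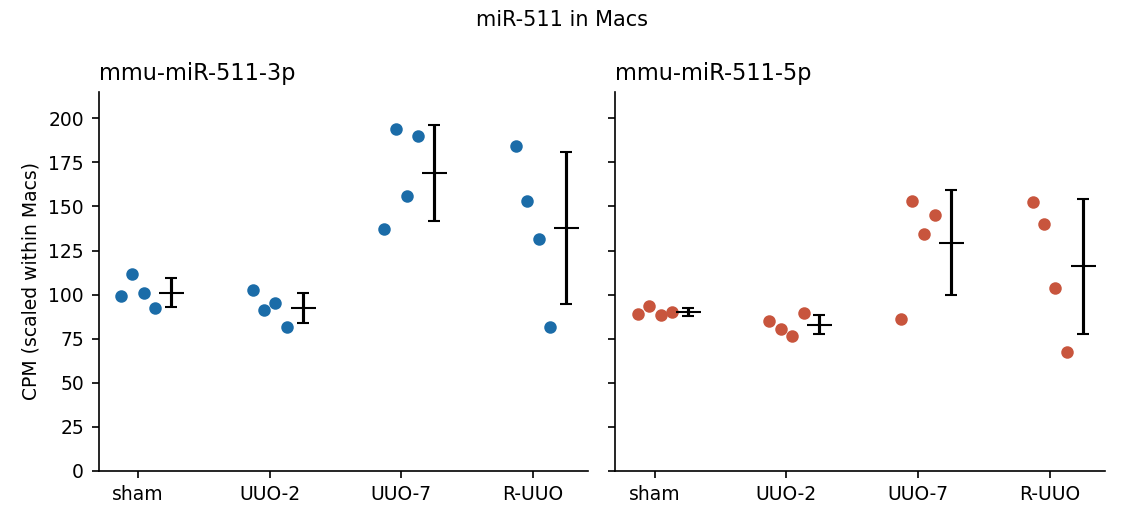
CPM of miR-511-3p (left) and miR-511-5p (right) in Macs, scaled within Macs, by condition; points are libraries, and the black marks beside them are the mean and SD of 4 libraries (3p means 101, 92.5, 169 and 138 CPM). The UUO-7 libraries of the 3p arm stand clear of sham and UUO-2, 1 UUO-7 library of the 5p arm does not, and R-UUO is spread over the whole range.

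Early obstruction and reversal gave no call for either arm. From sham to UUO-2 the change was -0.13 for the 3p arm (SE 0.20, edgeR adjusted p = 0.658) and -0.12 for the 5p arm (SE 0.22, edgeR adjusted p = 0.698), in a comparison where 27.6% of loci were called. The 95% intervals were -0.54 to 0.29 and -0.58 to 0.33, and with TMM over all libraries the changes were -0.31 and -0.31 (edgeR adjusted p = 0.305 and 0.32). From UUO-7 to R-UUO the change was -0.29 (SE 0.20, edgeR adjusted p = 0.286) and -0.15 (SE 0.22, edgeR adjusted p = 0.623), with 19.9% of loci called.

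R-UUO Macs lay between sham and UUO-7. Against sham the difference was 0.46 for miR-511-3p (SE 0.20, edgeR adjusted p = 0.0788) and 0.38 for miR-511-5p (SE 0.22, edgeR adjusted p = 0.189), with 31.9% of loci called. Both values turned on single R-UUO libraries. Without replicate 5, the shallowest Mac library with 1106651 counts, miR-511-3p was higher than in sham by 0.63 (edgeR adjusted p = 0.0037) and miR-511-5p by 0.55, and without replicate 1 the differences were 0.14 (edgeR adjusted p = 0.652) and 0.072 (edgeR adjusted p = 0.836). Without replicate 5 the 5p change from UUO-7 to R-UUO turned to 0.027.

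The choice of scaling shifts all Mac loci together, so the changes are also given against the median locus. From sham to UUO-7 the median locus changed by 0.22, and miR-511-3p lay 0.53 and miR-511-5p 0.31 above it. Over TMM within Macs, DESeq2's size factors, library size and TMM over all libraries, the 3p change ranged from 0.61 to 0.89, while its distance from the median stayed between 0.52 and 0.55. The 5p arm lay 0.30 to 0.33 above the median. From sham to UUO-2, where the median locus changed by 0.15, the arms lay 0.27 and 0.27 below it, and with library size alone their own changes turned to 0.026 and 0.029.

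Other miRNAs moved in the same Mac libraries. The summed leukocyte markers were lower in every injured group than in sham, at 35002 to 42066 CPM in sham, 24212 to 29873 CPM for UUO-2, 18268 to 21449 CPM for UUO-7 and 14848 to 27762 CPM for R-UUO, all 4 names being present in each group. The lowest of these sums belonged to R-UUO replicate 5, the library that was also lowest for miR-511. Most of the sum was miR-142a-5p, which averaged 36493 CPM in sham and was lower in each injured group, as was miR-223-3p. miR-223-5p was higher in each, with means of 104 CPM in sham, 152 for UUO-2, 243 for UUO-7 and 173 for R-UUO. miR-142a-3p averaged 719, 1060, 379 and 717 CPM in the same order. The PT markers miR-192-5p and miR-194-5p summed to 3509 to 5214 CPM in sham Macs, 2178 to 3239 CPM for UUO-2, 1236 to 2263 CPM for UUO-7 and 1058 to 2286 CPM for R-UUO. The EC markers, both arms of miR-126a, summed to 322 to 3387, 823 to 1335, 605 to 938 and 871 to 2428 CPM in the same order. The PDGFR-β+ cell markers miR-199a-3p, miR-214-3p, miR-143-3p and miR-145a-5p summed to 1979 to 4975, 4371 to 5282, 3106 to 4574 and 6651 to 9438 CPM, so that every R-UUO Mac library lay above those of the other conditions. The part of these shifts in the change of miR-511 was not tested. In sorted bulk samples a change in the make-up of a gate and a change of RNA per cell cannot be told apart.

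Beside miR-511, 2 lists of miRNAs linked to macrophage activation were followed in Macs. The 9 names of the inflammatory list had 11 tested loci, 3 of them copies of miR-9-5p. Of the 11, 4 rose and 1 fell from sham to UUO-2, where 18.4% of all loci rose and 9.19% fell (median 0.90 against 0.15 for all loci). From sham to UUO-7, where 26.3% rose and 16.8% fell, 6 of the 11 rose and 1 fell (median 1.29 against 0.22). The fall was that of the abundant miR-146a-5p in both comparisons (sham mean 77913 CPM). It changed by -1.11 at UUO-2 and by -1.19 at UUO-7 (edgeR adjusted p = 0.000158 and 4.46e-05). The members with the largest changes by UUO-7 were miR-212-3p (4.30, SE 0.48, edgeR adjusted p = 1.76e-06) and its cluster partner miR-132-3p (3.63, SE 0.34, edgeR adjusted p = 2.78e-07). miR-147-3p, which Toll-like receptor signalling induces, rose by 4.55 at UUO-2 and by 2.10 at UUO-7. miR-155-3p, the minor arm of the inflammatory miR-155, rose by 2.67 at UUO-7 (edgeR adjusted p = 0.0456) from a sham mean of only 1.31 CPM.

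The second list holds miRNAs linked to alternative activation, the state in which Mrc1 is high, and had 4 of its 5 names at 5 tested loci. Of these, 3 fell from sham to UUO-2, 2 of them copies of let-7c-5p, and the other 2 did not pass the test. Of all loci 9.19% fell there (median -0.86 for the list against 0.15 for all loci). From sham to UUO-7, where 26.3% of all loci rose and 16.8% fell, 1 rose and 1 fell (median 0.40 against 0.22). The fall was that of miR-125a-5p, by 1.15 (SE 0.18, edgeR adjusted p = 3.79e-05), and the rise that of miR-378a-3p, an miRNA that interleukin-4 signalling raises in macrophages, by 0.74 (SE 0.11, edgeR adjusted p = 2.18e-05). From UUO-7 to R-UUO 1 of the 11 inflammatory loci and 1 of the 5 alternative loci rose, against 12.7% of all loci, and the rest, like miR-511, did not pass the test.

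The 3p arm had slightly more reads than the 5p arm in Macs. The arms are different sequences, and whether reads stand equally for the molecules of both was not tested. It had more reads in 15 of 16 libraries, and the mean log2 ratio of 3p to 5p reads (0.5 added to each count) was 0.24 ± 0.17 (SD, n = 16; exact two-sided sign-flip permutation p = 9.16e-05). UUO-2 replicate 4, with 248 reads of 3p and 271 of 5p, was the exception. Over all Mac libraries 54.0% of miR-511 reads were 3p (95% Wilson interval 53.1 to 54.9, counting error only).

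By condition the ratio averaged 0.16 ± 0.093 for sham, 0.16 ± 0.20 for UUO-2, 0.40 ± 0.19 for UUO-7 and 0.26 ± 0.091 for R-UUO (SD, n = 4 each). The 4 UUO-7 libraries held 0.67, 0.34, 0.22 and 0.39, of which the highest was replicate 2, the one library in which the 5p arm was not raised. UUO-7 lay 0.24 above sham (exact two-sided permutation p = 0.0571, adjusted 0.286 over 5 comparisons), and the groups overlapped. None of the 5 comparisons passed before or after adjustment, and with 4 against 4 libraries the smallest exact p is 0.0286.

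Across the 16 Mac libraries the arms varied together, with a Pearson r of 0.92 (permutation p = 1e-05, the smallest that 100000 resamples can give) and a Spearman rho of 0.81 (permutation p = 0.00024) for CPM. Without the 2 libraries farthest from the median 3p level, UUO-7 replicates 3 and 5, r was 0.88 (permutation p = 3e-05). Within conditions, over deviations from each condition mean, r was 0.89 (permutation p = 0.0033) and rho 0.68 (permutation p = 0.0304). This was the only relation tested across libraries, and the ranking of other loci by r given below carries no test. The arms of a library share its depth and scaling factor, and with library size alone r was 0.92.

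**Figure D3:**
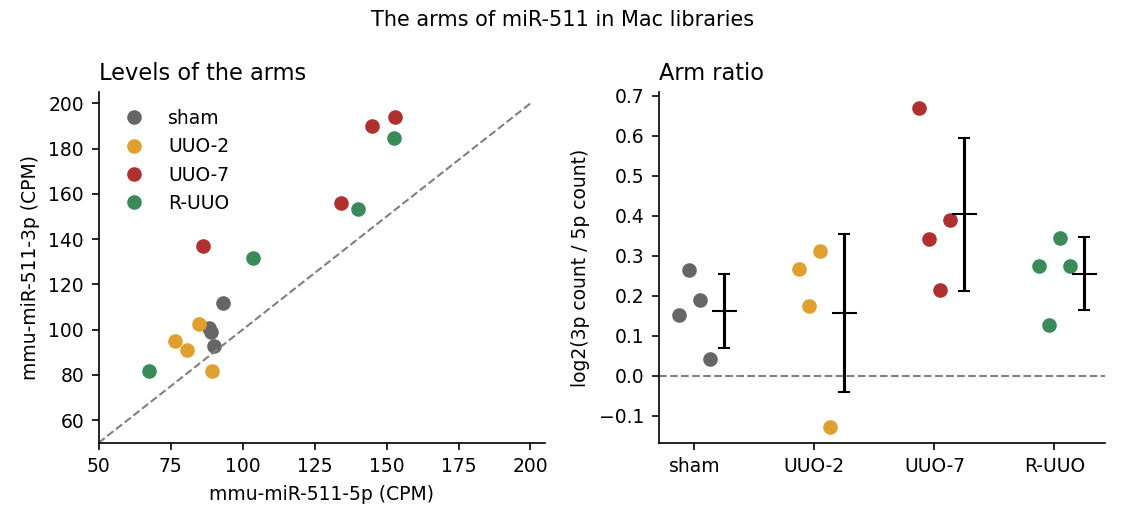
Left, CPM of miR-511-3p against CPM of miR-511-5p in the 16 Mac libraries, coloured by condition, with a dashed line of equal levels; right, log2 ratio of 3p to 5p reads per library by condition with the mean and SD of 4 libraries. Nearly all points lie above equal levels (15 of 16), and the condition means of the ratio run from 0.16 to 0.40 with overlapping libraries.

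Outside Macs the share of 3p reads could be read only from pooled counts. In PDGFR-β+ cells 189 of the reads were 3p and 181 were 5p, a share of 51.1% (95% Wilson interval 46.0 to 56.1), which holds the Mac value. In ECs the reads were 47 and 15, a share of 75.8% (63.8 to 84.8), above the Mac interval. The sham ECs gave 16 reads of 3p and 1 of 5p. EC libraries had few reads each, and intervals over pooled reads leave out the spread between libraries.

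PDGFR-β+ cells held the second highest level of miR-511, most of it in sham and UUO-2. For miR-511-3p the reads were 36, 25, 11 and 14 in sham libraries 1 to 4, and 10, 31, 33 and 8 in UUO-2 libraries 1 to 4. At UUO-7 they were 10, 0 and 0 in libraries 2, 4 and 5, and in R-UUO 0, 0, 7 and 4 in libraries 1, 2, 4 and 5. In CPM scaled within PDGFR-β+ cells, sham spanned 3.92 to 6.03 and UUO-2 2.97 to 6.54, all above the highest UUO-7 library (1.88) and the highest R-UUO library (0.857).

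miR-511-5p showed the same split with more spread. Sham libraries had 20, 33, 3 and 18 reads and UUO-2 libraries 7, 20, 51 and 11, in the same order, while UUO-7 libraries had 15, 0 and 1 and R-UUO libraries 0, 1, 1 and 0. Nearly all UUO-7 reads of both arms came from replicate 2, whose 5p level (2.81 CPM) lay within the sham range of 1.07 to 7.95 CPM. The 4 R-UUO libraries lay below every sham library.

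From sham to UUO-7 miR-511-3p fell by 2.77 on the log2 scale (SE 1.05, edgeR adjusted p = 0.0369), where 14.3% of the 477 loci tested in PDGFR-β+ cells were called lower and 18.9% did not overlap downwards. This call was lost without sham replicate 1, 2 or 4 (-2.77, -2.67 and -2.79), without UUO-7 replicate 4 or 5 (-2.21 and -2.34), with library size alone (-2.29) and with the replicate number as a block (-3.10). Without UUO-7 replicate 2, which held all 10 reads, the call held at -7.52, a fitted value that depends on the prior count. For miR-511-5p the change was -1.97 (SE 0.99, edgeR adjusted p = 0.112), not a call, and without UUO-7 replicate 2 it was -4.67 (edgeR adjusted p = 0.0122), a value that depends on the prior count because 1 read remained. The pooled level in sham was 6.12 times that at UUO-7 for the 3p arm (95% interval 3.17 to 13.2, counting error only) and 3.29 times for the 5p arm (1.90 to 6.05).

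The fall in R-UUO was the firmest of these changes. Against sham, miR-511-3p fell by 3.44 on the log2 scale (SE 0.97, edgeR adjusted p = 0.00933), and miR-511-5p was called lower as well (edgeR adjusted p = 0.00153), where 13.8% of loci were called lower and 14.9% did not overlap downwards. With 11 and 2 reads left in R-UUO, the pooled sham level was 10.3 times that of R-UUO for the 3p arm (95% interval 5.49 to 21.4) and 48.8 times for the 5p arm (13.0 to 411). Both calls held in every alternative. The median locus changed by 0.40 in this comparison and by 0.50 from sham to UUO-7, so both arms moved against it.

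UUO-2 did not differ detectably from sham in PDGFR-β+ cells: the changes were -0.12 for the 3p arm (SE 0.83, edgeR adjusted p = 0.963) and 0.15 for the 5p arm (SE 0.83, edgeR adjusted p = 0.962), with 6.29% of loci called and 95% intervals of -1.89 to 1.66 and -1.61 to 1.92. From UUO-2 to UUO-7 the changes were -2.66 (SE 1.05, edgeR adjusted p = 0.0588) and -2.12 (SE 0.99, edgeR adjusted p = 0.112), neither a call, with 33.8% of loci called. The 3p libraries did not overlap here, as was so for 17.2% of loci downwards. From UUO-7 to R-UUO the 3p change was -0.67 (SE 1.09, edgeR adjusted p = 0.801) and the pooled 5p reads numbered 16 and 2, a ratio of levels of 14.8 (95% interval 3.49 to 133) that was not a call (edgeR adjusted p = 0.153), with 3.98% of loci called.

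Set against the Mac level of the same condition, PDGFR-β+ cells held 9.67% of it for miR-511-3p and 9.59% for miR-511-5p in sham, and 10.6% and 13.2% at UUO-2. These shares were 0.872% and 1.92% at UUO-7 and 0.634% and 0.161% in R-UUO. The shares of the leukocyte markers ran opposite to those of miR-511 from UUO-2 to UUO-7, but not from sham to UUO-2 or from UUO-7 to R-UUO. In sham PDGFR-β+ cells miR-142a-3p, miR-142a-5p, miR-223-3p and miR-223-5p stood at 0.194%, 0.196%, 0.743% and 0.331% of their Mac level, each far below the share of miR-511. At UUO-2 they stood at 1.64%, 1.06%, 1.35% and 0.591%, at UUO-7 at 7.25%, 1.95%, 5.59% and 0.667%, and in R-UUO at 0.982%, 0.695%, 1.11% and 0.435%.

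Summed, the leukocyte markers were 53.0 to 171 CPM in sham PDGFR-β+ cell libraries, 284 to 331 CPM for UUO-2, 275 to 700.0 CPM for UUO-7 and 122 to 207 CPM for R-UUO, all 4 names being present in each group. The 2 UUO-7 libraries without a 3p read, replicates 4 and 5, had 340 and 700.0 CPM of these markers, and the one with 10 reads, replicate 2, had 275 CPM. The mean marker sum was lowest in sham, where miR-511 was high, but sham and R-UUO libraries overlapped. At UUO-2 both the marker sum and miR-511 were high. The part of leukocytes in the miR-511 of these libraries was not tested.

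Other marker sums were, like miR-511, lower at UUO-7 and in R-UUO in these libraries. The summed PDGFR-β+ cell markers, mesenchymal miRNAs, were 325911 to 397779 CPM in sham, 203569 to 400057 CPM for UUO-2, 142427 to 170869 CPM for UUO-7 and 88410 to 155949 CPM for R-UUO. The EC markers summed to 2041 to 2588 CPM, 1605 to 3524, 618 to 1586 and 465 to 706 CPM in the same order, with the highest UUO-7 value again in replicate 2. The PT markers summed to 2083 to 3848, 1895 to 3431, 1457 to 1652 and 834 to 1654 CPM. The sum of the PDGFR-β+ cell markers does not stand for each of its members. For these cells in late injury the paper reports a loss of miR-143 and miR-145 but a rise of miR-199 and miR-214. The part of all these markers in the change of miR-511 was not tested.

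**Figure D4:**
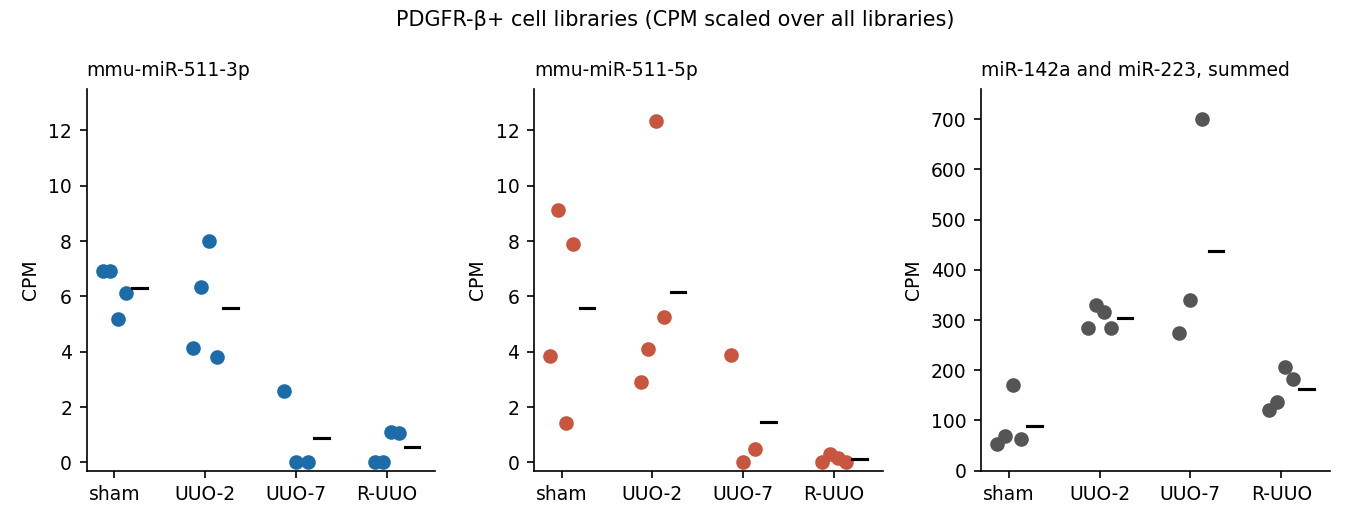
CPM scaled over all libraries in each PDGFR-β+ cell library by condition, for miR-511-3p (left), miR-511-5p (middle) and the summed leukocyte markers miR-142a and miR-223 (right); points are libraries and black lines are means of 4 libraries (3 at UUO-7). Both arms drop from 6.29 and 5.57 CPM in sham to 0.541 and 0.116 CPM in R-UUO, while the marker sum is lowest in sham (53.0 to 171 CPM).

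The change from sham to UUO-7 differed between Macs and PDGFR-β+ cells. In a fit over all 63 libraries miR-511-3p changed by 0.61 in Macs and by -2.62 in PDGFR-β+ cells, a difference of 3.23 (SE 0.82, edgeR adjusted p = 0.00253), and 7.45% of 671 loci were called higher in this contrast. For miR-511-5p the changes were 0.39 and -1.79, a difference of 2.18 (SE 0.81, edgeR adjusted p = 0.0491). With the mouse as a replicate block the 5p difference was 2.20 and no longer a call (edgeR adjusted p = 0.0756), and without the mice numbered 1, 4 or 5 it was 2.33, 1.44 and 2.13 and likewise not a call (edgeR adjusted p = 0.0524, 0.343 and 0.109). It was 5.12 without the mice numbered 2. The 3p difference passed in every alternative, but was 8.35 without those mice, since no UUO-7 read then remained in PDGFR-β+ cells.

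The same contrast at UUO-2 was -0.16 for the 3p arm (SE 0.67, edgeR adjusted p = 0.992) and -0.47 for the 5p arm (SE 0.70, edgeR adjusted p = 0.774), where 8.79% of loci were called. From UUO-7 to R-UUO the difference of change was 0.49 (SE 0.92, edgeR adjusted p = 0.859) and 3.40 (SE 1.12, edgeR adjusted p = 0.0926), where 1.49% were called. The last value rests on the 2 reads of R-UUO PDGFR-β+ cells.

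ECs and PT cells did not pass the filter on low counts for either arm, so no change within them was tested. miR-511-3p had 3, 4, 2 and 7 reads in sham EC libraries 1 to 4, 5, 1, 3 and 0 at UUO-2, 0, 4, 3 and 4 at UUO-7 in libraries 2 to 5, and 7, 3, 0 and 1 in R-UUO libraries 1, 2, 4 and 5. miR-511-5p had 1, 5, 5 and 4 reads per condition in ECs, all 4 libraries together. Most of these values lie at or under 3 reads, a floor of 0.438 to 1.62 CPM per EC library, and no change with injury was detectable at this depth. The difference of change between Macs and ECs from sham to UUO-7 was 0.74 for the 3p arm (SE 0.89, edgeR adjusted p = 0.618) and -1.70 for the 5p arm (SE 1.24, edgeR adjusted p = 0.375), where 18.2% of loci were called. The arms entered this fit through their reads in Macs and PDGFR-β+ cells, and with so few EC reads these values allow no comparison.

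In PT cells miR-511-3p had 3 reads at UUO-7, 1 each in libraries 3, 4 and 5, and 2 reads in R-UUO, both in library 4. miR-511-5p had 2 reads, at UUO-7. The difference of change between Macs and PT cells from sham to UUO-7 was -2.65 (SE 2.61, edgeR adjusted p = 0.554) and -2.34 (SE 2.71, edgeR adjusted p = 0.631), with 27.4% of loci called, and errors of this size allow no comparison.

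The loci whose pattern was most like miR-511 were ranked by Pearson's r of log2 CPM. Over the 16 means of cell type and condition, each arm was closest to the other (r = 0.993). Next for miR-511-3p, among 671 loci, were miR-7043-3p (r = 0.955), miR-16-5p (0.949), miR-652-3p (0.946), miR-7086-5p (0.930) and miR-6537-3p (0.929). For miR-511-5p they were miR-7043-3p (0.953), miR-16-5p (0.945), miR-223-3p (0.935), miR-652-3p (0.932) and miR-16-1-3p (0.932). These means share the contrast of Macs with the rest: miR-7043-3p averaged 32.7 CPM in Macs and at most 0.845 CPM in another cell type (PDGFR-β+ cells), whereas the locus of miR-16-5p that ranked for the 3p arm averaged 8203 CPM in Macs and still 3039 CPM in ECs. miR-7086-5p and miR-6537-3p, at 2.57 and 2.53 CPM in Macs, had no read elsewhere.

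Within the 16 Mac libraries, over 457 loci, the closest to miR-511-3p after its own partner (r = 0.920) were miR-146b-5p (0.775), a negative regulator of inflammatory signalling, miR-191-5p (0.725), miR-214-3p (0.723), miR-125b-1-3p (0.704) and miR-434-5p (0.695). For miR-511-5p they were miR-467d-5p (0.678), miR-146b-5p (0.676), miR-6236 (0.668), miR-434-5p (0.662) and miR-6238 (0.636). Only miR-146b-5p and miR-434-5p stood in both lists. These libraries share their conditions and scaling, and miR-434-5p averaged only 1.99 CPM in Macs. Of the loci in either list, the arms aside, only miR-146b-5p and miR-191-5p averaged highest in Macs on the scale of all libraries. In PDGFR-β+ cells miR-214-3p averaged 292 CPM (18.4 in Macs), miR-125b-1-3p 427 CPM (15.8) and miR-434-5p 72.0 CPM. In PT cells miR-6236 averaged 108 CPM (31.5 in Macs) and miR-6238 23.9 CPM (5.94).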

How the data were processed

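Small RNA was sequenced in 63 sorted samples, grouped by the sample labels, with 4 libraries per group and 3 for the UUO-7 PDGFR-β+ cells. The authors trimmed reads with Trim Galore 0.4.1 and Cutadapt 1.1 and mapped them with ShortStack, a wrapper of Bowtie, using GRCm38 and miRBase. They deposited raw read counts per mature miRNA locus, neither normalized nor pooled. The strand counted and the placing of multi-mapping reads are not given in the sources used here. A column of totals per locus was not used.

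The members and the lists were chosen with earlier results of these data known. The deposited counts were tested in R 4.3.3 by the quasi-likelihood test of edgeR 4.0.16 with Benjamini-Hochberg adjustment. For changes with injury, filterByExpr (removing loci of low count) and TMM scaling ran within 1 cell type, leaving 457 loci in Macs and 477 in PDGFR-β+ cells, and each fit used every condition of that cell type. For levels between cell types and for differences of change they ran over all libraries (671 loci). Single values were tested by permutation in Python 3.11.15 with scipy 1.17.1. The fits were tested on simulated counts. Alternatives were DESeq2 1.42.0, other scalings, no filter, only the compared groups, the replicate number or mouse as a block, other pseudocounts and each replicate left out. TMM over all libraries for changes within a cell type was chosen after seeing the data. Named miRNAs were both arms, the 5 most alike per arm, all leukocyte markers and at most 4 called members per list with the largest change from sham to UUO-7. Beyond this rule, list members counted at several loci and the inflammatory member that fell are named.

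Libraries of different cell types with 1 replicate number and condition come from 1 mouse by the study's design, and their deviations from the group means correlated at -0.12 to 0.26 over loci between Macs and PDGFR-β+ cells (15 mice). Replicates are separate mice. All 93 pairs of replicate libraries differed by more than counting noise (chi-square per degree of freedom of at least 8.96). Depth ran from 616565 to 10819385 counts, and intervals and floors of 3 counts cover counting error only.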

Additional observations from a re-analysis of the deposited data

Results flagged for a closer look

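Both arms of miR-511 changed differently from sham to UUO-7 in Macs and in PDGFR-β+ cells, by the test of the difference itself. The change in Macs minus the change in PDGFR-β+ cells was 3.23 on the log2 scale for miR-511-3p (SE 0.82, edgeR adjusted p = 0.00253) and 2.18 for miR-511-5p (SE 0.81, edgeR adjusted p = 0.0491). Fitted changes of the 3p and 5p arms were 0.61 and 0.39 in Macs, against -2.62 and -1.79 in PDGFR-β+ cells. The 5p call was lost with the mouse as a replicate block (2.20). It was also lost in 3 of the 5 fits that each left out the mice of a given number. In this contrast 7.45% of 671 loci were called higher. The PDGFR-β+ side rests on 3 UUO-7 libraries with 10, 0 and 0 reads of the 3p arm and 15, 0 and 1 of the 5p arm. Without the mice numbered 2 the 3p difference was 8.35 and the 5p difference 5.12. Dixon's test found no library apart from its group in the 22 groups of 4 values tested, which do not include these 3 libraries.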

How the results depend on the processing

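Both arms were rare outside Macs, and changes in ECs and PT cells could not be measured at this depth. Over the repeats of the main results with another setting, direction and call held 404 times, a call was lost 31 times, a call was gained 13 times and a direction turned 18 times. This tally leaves out the contrasts of Macs with ECs and PT cells and the numbers of loci called. Among those left out, 220 held, 10 directions turned and 13 numbers of loci moved. The cause was not tested. On the log2 scale and with library size alone, Mac changes from sham to UUO-2 turned to 0.026 (3p) and 0.029 (5p), the 5p rise to UUO-7 was called (0.67, edgeR adjusted p = 0.0183), the 3p fall in PDGFR-β+ cells was not (-2.29), nor was the 5p difference of change between them (2.02), and differences of change from sham to UUO-2 turned to 0.13 (3p, Macs less PDGFR-β+ cells) and to 0.025 and 0.029 (3p and 5p, Macs less PT cells), while the mean of ECs less PT cells, not read as an order at this depth, was 0.25 (3p) and 0.15 (5p). Without the filter, the 5p rise in Macs from UUO-2 to UUO-7 was lost (0.60), the 5p fall in PDGFR-β+ cells from UUO-7 to R-UUO was called (-3.34), as was its difference of change (3.38), and the 3p difference of change between Macs and ECs from UUO-7 to R-UUO turned to 0.032. The 3p change in PDGFR-β+ cells from UUO-2 to UUO-7 was called with DESeq2 (-2.85), DESeq2's size factors in edgeR (-2.80), no filter (-2.61) and only those groups (-2.70), and DESeq2 called the 5p change from sham to UUO-7 (-2.24). With other pseudocounts the 3p difference between PDGFR-β+ cells and ECs was no longer called (1.67 at 0.1), and that between ECs and PT cells was 0.10 (at 5). Between conditions the replicate numbers mark different mice, whose deviations correlated at -0.30 to 0.21. With the number as a replicate block, the 3p change in PDGFR-β+ cells from sham to UUO-7 was -3.10 (edgeR adjusted p = 0.064), and with the mouse as a replicate block the 5p difference of change was 2.20 (edgeR adjusted p = 0.0756); the block changed no other call of an arm. Loci called in PDGFR-β+ cells from UUO-7 to R-UUO numbered 19, but 34 with DESeq2, 12 with library size, 55 without the filter, 7 with only those groups and 3 to 79 with a replicate left out, and from sham to UUO-2 30, but 49 without the filter and 19 without sham replicate 4. With each replicate left out in turn, ranges in Macs were 0.44 to 0.68 (5p, sham to UUO-7), 0.56 to 0.80 (5p, UUO-2 to UUO-7), -0.32 to 0.027 (5p, UUO-7 to R-UUO), 0.14 to 0.63 (3p) and 0.072 to 0.55 (5p) from sham to R-UUO and -0.057 to 0.090 (arm ratio, sham to UUO-2). In PDGFR-β+ cells they were -0.35 to 0.032 (3p) and -0.46 to 0.58 (5p) from sham to UUO-2, -7.52 to -2.21 and -4.67 to -1.39 from sham to UUO-7, -7.40 to -2.09 and -4.82 to -1.51 from UUO-2 to UUO-7, and -1.24 to 4.07 (3p) from UUO-7 to R-UUO, the values farthest from those of all libraries in the last 3 comparisons coming without UUO-7 replicate 2. For Macs less PDGFR-β+ cells they were -0.42 to 0.23 (3p) and -0.86 to 0.59 (5p) from sham to UUO-2, 1.44 to 5.12 (5p) to UUO-7 and -5.01 to 1.73 (3p) from UUO-7 to R-UUO. For Macs less ECs they were -1.15 to 0.40 (3p, sham to UUO-2), and -0.39 to 0.69 (3p) and -0.55 to 1.51 (5p) from UUO-7 to R-UUO, for Macs less PT cells -1.39 to 3.17 (3p, UUO-7 to R-UUO), and for ECs less PT cells 0.26 to 0.58 (3p) and 0.17 to 0.33 (5p).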
